A study of Mus musculus with 2 samples.

Results

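The killer lectin-like receptor genes encode C-type lectin-like receptors of natural killer (NK) cells and of some T cells and myeloid cells. They were taken as every gene symbol of the feature table that starts with Klr, followed by a letter from a to k and a further digit or letter, with at least 10 UMIs (unique molecular identifiers, each counting 1 captured transcript) summed over both libraries. All 26 such symbols, of 32285 genes, passed, so none was left out. Those nearest the threshold were Klrb1 with 31 UMIs and Klrg2 with 44, and the highest was Klrd1 with 21893. The rule used these totals alone, and the members are 11 Ly49 genes (Klra), 5 NKR-P1 genes (Klrb1), 3 NKG2 genes (Klrc), Klrd1, Klrk1, Klre1, 2 Klri genes and 2 Klrg genes.

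Ly49 receptors are homodimers that read class I major histocompatibility molecules, and an NK cell carries a few of them in a combination that differs from cell to cell. CD94 (Klrd1) pairs with an NKG2 chain to read Qa-1, while NKG2D (Klrk1) reads stress-induced ligands and the NKR-P1 receptors read Clr proteins encoded close by. Inhibitory members carry an immunoreceptor tyrosine-based inhibition motif, and activating members signal through adaptors such as DAP12 (Tyrobp) and DAP10 (Hcst).

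Leukocytes came from pancreatic islets of female mice 12 weeks old, the islets picked by hand after collagenase and dispersed without enzyme, and live CD45+ CD31- cells were sorted for droplet-based 3' sequencing. There were 2 groups of 1 library each. One was from NOD mice, the strain with spontaneous autoimmune diabetes, here the WT NOD library. The other was from NOD.Cxcl16-/- mice, and the labels give neither the cell types affected by the deletion nor the number of mice pooled. Levels are given as CPM, a gene's UMIs per 1e6 UMIs of the same cells. Over all cells that passed the filters below, the transcript counted as Cxcl16 stood at 104 CPM in the WT NOD library and 102 CPM in the other. The mix of cells differed, with 4.58% of the WT NOD cells and 8.18% of the others in the myeloid gate described below. These values therefore do not give the Cxcl16 level within a cell type. The library labelled NOD.Cxcl16-/- is called by its label, and no direction below is attributed to the genotype. With 1 library a group no difference has a replicate check and no test is given. Intervals are at the 95% level, exact Poisson for levels and exact binomial for shares and ratios, and cover counting error only.

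The libraries held 13859 and 10554 barcodes with 93553185 and 98681133 UMIs, the WT NOD library first here and in every pair of values below. After barcodes with fewer than 500 genes or over 10% mitochondrial UMIs were left out, 12252 and 10214 cells remained, at medians of 4269 and 5189 UMIs. Barcode sequences present in both libraries numbered 45, and 41 of them were kept in both. Cells were placed in 8 gates by UMIs of lineage markers, none of them a Klr gene. The NK gate (Ncr1, no T-cell receptor alpha constant UMI) held 101 and 79 cells, the CD8 T-cell gate 2018 and 1335, the CD4 T-cell gate 1416 and 1453, the gamma-delta T-cell gate 196 and 159, the innate lymphoid cell (ILC) gate 34 and 62, the myeloid gate 561 and 836, the plasmacytoid dendritic cell (pDC) gate 58 and 49, and the B-cell gate 1688 and 1845. These strict gates left 50.4% and 43.0% of the cells, with 50.8% and 50.3% of the Klr UMIs, outside every gate.

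Markers that were not used for gating were read in each gate. NK-gated cells held Eomes at 267 and 193 CPM and Gzma at 4724 and 5527 CPM, and also Trdc at 164 and 236 CPM. Gamma-delta-gated cells, selected on Trdc and a Tcrg constant gene, still held Trac at 116 and 95.8 CPM. ILC-gated cells held Gata3, a factor of type 2 cells, at 389.7 and 530.3 CPM, with no Eomes UMI and 1 Eomes UMI. In the NK gate 27 of 101 and 16 of 79 cells had a single Ncr1 UMI and so stood at its edge. In the CD4 gate 768 of 1416 and 771 of 1453 cells had a single Cd4 UMI.

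All 26 genes lie on chromosome 6 of GRCm38 in the GENCODE M21 annotation and are protein coding. All but Klrg1 and Klrg2 form 1 run of 24 members over 2638 kb, from 128609227 (Klrb1a) to 131247362 (Klra2). Within it the Ly49 genes other than Klra2 occupy 129831154 to 130386874. Several of these genes are near copies of each other, and the NOD strain carries a Ly49 gene content that differs from that of the C57BL/6 reference genome. Counts of single Ly49 genes are therefore uncertain, because a read of a NOD gene can be assigned to its nearest reference copy or dropped. Of the 50-base stretches in the last 500 bases of the annotated transcripts, where 3' reads fall, 49.4% of those of Klra9, 43.5% of Klrc1, 40.6% of Klra10, 31.5% of Klra3, 24.9% of Klrc3 and 22.1% of Klra7 also occur in another Klr gene. The share was 15.2% for Klrc2, 13.1% for Klra8, 10.2% for Klri1 and under that for the other members. It was 0% for 11 members, among them Klrd1, Klrk1, Klre1, Klri2, Klra5, Klra17, Klra2 and Klrg1. Genes on the other strand overlap Klra17 (Gm44248 and Gm17631) and Klrb1f (Gm43992 and Gm44000), and reads of such pairs cannot be told apart unless the counting used strand, which the sources used here do not give. Gm44511 overlaps Klrb1b and Klrb1c on their own strand, so their counts are uncertain either way.

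Promoters are shown for 7 of the Ly49 and NKG2 genes, in lower case with motif matches in capitals. They are RefSeq windows on GRCm38.p6 of 250 bases before to 50 bases after the annotated start. Of the 26 members 23 had an entry. Searched on both strands were TGTGGT, the core of RUNX sites, GGTGTG, a core of T-box sites, and GGAAGT, an ETS core. A match is a description of the letters and not a binding site. Klra4 (chr6:130067222-130067521, minus strand), highest in the NK gate, and Klra17 (chr6:129876623-129876922, minus strand), highest in the pDC gate, share 82.3% of their bases when aligned end to end. Klra5 (chr6:129913175-129913474, minus strand) and Klra6 (chr6:130026905-130027204, minus strand), both highest in the gamma-delta gate, share 83.3%. By the same measure the Klra4 window shared 53.3% to 62.0% with those of members outside the Ly49 genes. The Klra1 window shared 56.3% to 59.7% with those of the other Ly49 genes. Klra7 and Klra10 were similar in this, sharing 68.0% with each other. With the remaining Ly49 windows Klra7 shared 56.3% to 61.0% and Klra10 55.0% to 61.7%. Klra1 (chr6:130386825-130387124, minus strand) was the member with the highest mean level in the NK gate. Klrc1 (chr6:129678924-129679223, minus strand) and Klrc2 (chr6:129660547-129660846, minus strand) led the NKG2 genes in the CD8 gate.
Klra4: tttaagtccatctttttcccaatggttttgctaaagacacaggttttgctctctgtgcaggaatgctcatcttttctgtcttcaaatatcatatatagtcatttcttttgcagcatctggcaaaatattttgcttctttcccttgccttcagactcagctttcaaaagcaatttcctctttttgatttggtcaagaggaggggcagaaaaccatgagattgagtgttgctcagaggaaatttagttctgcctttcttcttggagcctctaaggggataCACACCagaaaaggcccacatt
Klra17: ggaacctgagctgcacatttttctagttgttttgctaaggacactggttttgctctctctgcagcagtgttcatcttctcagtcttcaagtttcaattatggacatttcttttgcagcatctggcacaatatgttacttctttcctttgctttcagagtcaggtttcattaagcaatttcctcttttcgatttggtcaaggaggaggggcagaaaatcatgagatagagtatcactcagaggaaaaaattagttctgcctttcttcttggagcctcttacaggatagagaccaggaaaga
Klra5: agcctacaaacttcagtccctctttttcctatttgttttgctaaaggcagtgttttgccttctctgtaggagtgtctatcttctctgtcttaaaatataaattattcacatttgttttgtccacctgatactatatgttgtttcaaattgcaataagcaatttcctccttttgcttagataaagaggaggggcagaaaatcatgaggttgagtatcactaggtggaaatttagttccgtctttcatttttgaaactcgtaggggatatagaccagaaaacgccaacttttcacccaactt
Klra6: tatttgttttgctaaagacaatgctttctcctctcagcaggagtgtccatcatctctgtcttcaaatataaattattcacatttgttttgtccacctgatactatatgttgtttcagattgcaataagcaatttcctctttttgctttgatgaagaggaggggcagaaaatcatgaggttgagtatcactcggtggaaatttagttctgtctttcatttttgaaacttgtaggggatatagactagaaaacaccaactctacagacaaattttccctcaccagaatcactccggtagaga
Klra1: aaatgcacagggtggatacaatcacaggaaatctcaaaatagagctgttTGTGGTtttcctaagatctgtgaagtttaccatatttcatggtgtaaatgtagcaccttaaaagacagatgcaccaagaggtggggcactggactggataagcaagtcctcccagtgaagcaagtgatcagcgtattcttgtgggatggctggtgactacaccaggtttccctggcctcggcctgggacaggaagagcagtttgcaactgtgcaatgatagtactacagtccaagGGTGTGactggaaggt
Klrc1: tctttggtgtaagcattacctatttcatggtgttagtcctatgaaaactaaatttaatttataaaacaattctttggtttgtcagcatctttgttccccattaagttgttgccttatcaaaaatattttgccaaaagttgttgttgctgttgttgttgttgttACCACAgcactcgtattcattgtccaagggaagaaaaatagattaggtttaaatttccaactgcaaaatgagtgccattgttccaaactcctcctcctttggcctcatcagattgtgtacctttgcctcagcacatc
Klrc2: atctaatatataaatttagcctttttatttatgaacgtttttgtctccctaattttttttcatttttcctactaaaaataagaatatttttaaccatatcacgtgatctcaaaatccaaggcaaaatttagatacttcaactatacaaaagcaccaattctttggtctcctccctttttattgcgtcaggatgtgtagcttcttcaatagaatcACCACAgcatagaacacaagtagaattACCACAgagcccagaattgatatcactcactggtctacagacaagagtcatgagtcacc

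The RUNX core occurred in 8 of the 23 member promoters, against 16.9% of 27025 promoters in the table. These were Klra1, Klrk1, Klre1, Klrc1, Klrc2, Klrc3, Klrb1a and Klrb1c. The Klrc2 and Klrc3 windows share 85.3% and the Klrb1a and Klrb1c windows 78.7%, so the 8 are not independent of each other. The T-box core occurred in 6 member promoters, including Klra1 and Klra4, against 19.0%, and the ETS core in 4 against 24.1%. None of the 3 motifs was found in the windows of Klra17, Klra5 and Klra6. The promoters closest to each other were those of Klra3 and Klra9, at 90.3%.

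Summed over the 26 genes, the family was highest in the NK gate, at 6801 CPM (interval 6538 to 7071) and 7349 CPM (7075 to 7632). The gamma-delta gate followed at 1857 and 1634 CPM. The pDC gate stood at 955 and 816 CPM and the CD8 gate at 925 and 751 CPM, ahead of the myeloid gate at 450.4 and 435 CPM, the ILC gate at 278 and 162 CPM and the CD4 gate at 87.7 and 61.4 CPM. In B cells, which served as background, it was 12.9 CPM (10.6 to 15.6) and 6.01 CPM (4.55 to 7.79). The B gate left out cells with an Ncr1, Cd4, Cd8a or Cd8b1 UMI. Stray NK and T-cell RNA may therefore be understated in this and the later background values. The NK gate was thus 7.35-fold (7.05 to 7.67) and 9.79-fold (9.37 to 10.2) above the CD8 gate. Assigning cells by marker score in place of gates enlarged the NK class to 847 and 422 cells and brought these ratios, on the log2 scale, from 2.88 and 3.29 to 1.33 and 1.91.

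**Figure D1:**
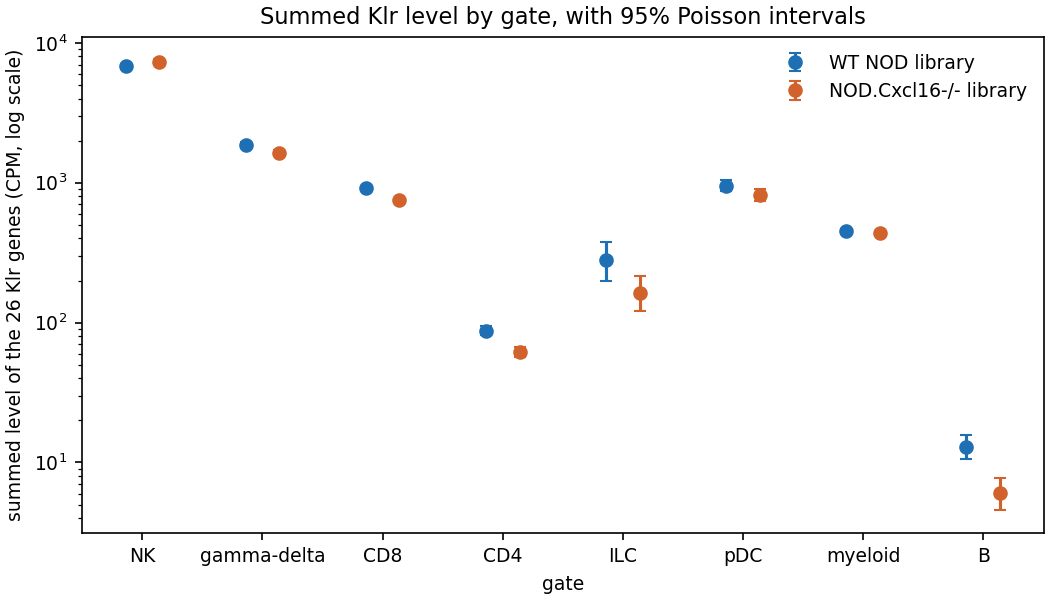
Summed level of the 26 Klr genes in CPM on a log axis, for 8 gates and both libraries, with points for the level and bars for the exact 95% Poisson interval. The NK gate is highest at 6801 and 7349 CPM and the B gate, the background, lowest at 12.9 and 6.01 CPM.

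Of the 24 members with at least 50 UMIs over the gated cells, 18 had their highest mean level in the NK gate, where 14.8% of 13531 genes did. Klrc1 was highest in the CD8 gate (10.5% of genes) and Klra5 and Klra6 in the gamma-delta gate (7.58%). Klrg1 was highest in the ILC gate (16.5%), Klra2 in the myeloid gate (13.4%) and Klra17 in the pDC gate (18.9%), and no member in the CD4 gate (8.91%) or the B gate (9.33%). Klrc2, counted with the NK gate, was near level between gates, at a mean of 93.3 CPM there and 90.6 CPM in the CD8 gate. The order for Klrc1 was also uncertain, at a mean of 138 CPM in the CD8 gate and 115 CPM in the NK gate. Its NK values rested on 49 and 36 UMIs. Klrg2 and Klrb1, with 18 UMIs each over the gated cells, were not ranked.

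**Figure D2:**
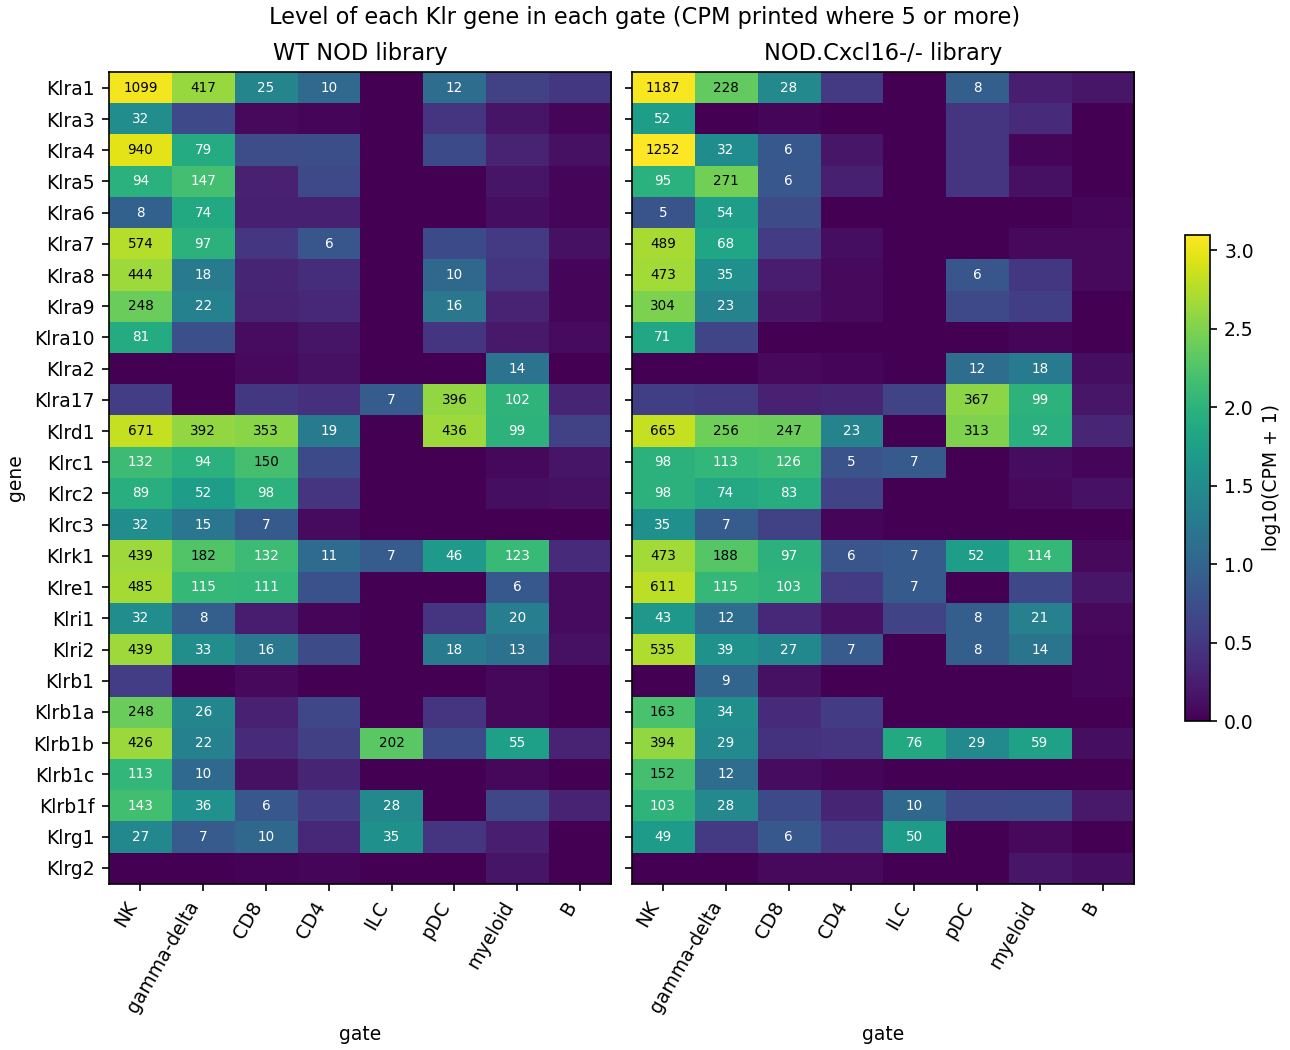
Level of each of the 26 genes (rows) in each of 8 gates (columns), 1 panel a library, coloured by log10(CPM + 1) with the CPM printed where it is 5 or more. Most rows are brightest in the NK column, Klra17 is brightest in the pDC column at 396 and 367 CPM, and Klrd1 spans NK, T-cell, pDC and myeloid columns.

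Between the libraries a member was called where its level differed by 1.5-fold or more and it had at least 50 UMIs in the gate. In the NK gate, of 17 members compared, none was called higher in the library labelled NOD.Cxcl16-/- (5.91% of 2471 genes were) and 1, Klrb1a, was called lower (4.49%). In the CD8 gate, of 14 members, Klri2, Klra5 and Klra6 were called higher (3.07% of 10588 genes) and Klrg1 and Klrc3 lower (2.67%). In the gamma-delta gate, of 13 members, Klra5 was called higher (7.47% of 4937 genes) and Klrd1, Klra4 and Klra1 lower (3.22%).

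The CD4 gate had 8 members compared, of which Klri2 was called higher (1.89% of 10201 genes) and Klre1, Klrk1, Klra7 and Klra1 lower (3.54%). In the myeloid gate none of 9 was called higher (3.65% of 10310 genes) and Klre1 was called lower (4.42%), and in the ILC gate the single member compared, Klrb1b, was called lower (7.15% of 1328 genes). None of 3 in the pDC gate was called in either direction (7.32% and 7.8% of 3335 genes). In the B gate no member reached 50 UMIs, and of 9883 genes 2.53% were called higher and 2.66% lower. The median log2 ratio of the members was 0.09 in the NK gate, -0.17 in the CD8 gate, -0.75 in the CD4 gate and -0.01 in the gamma-delta gate. Over all genes compared it was 0.04, 0.03, 0.01 and 0.08 in the same gates.

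**Figure D3:**
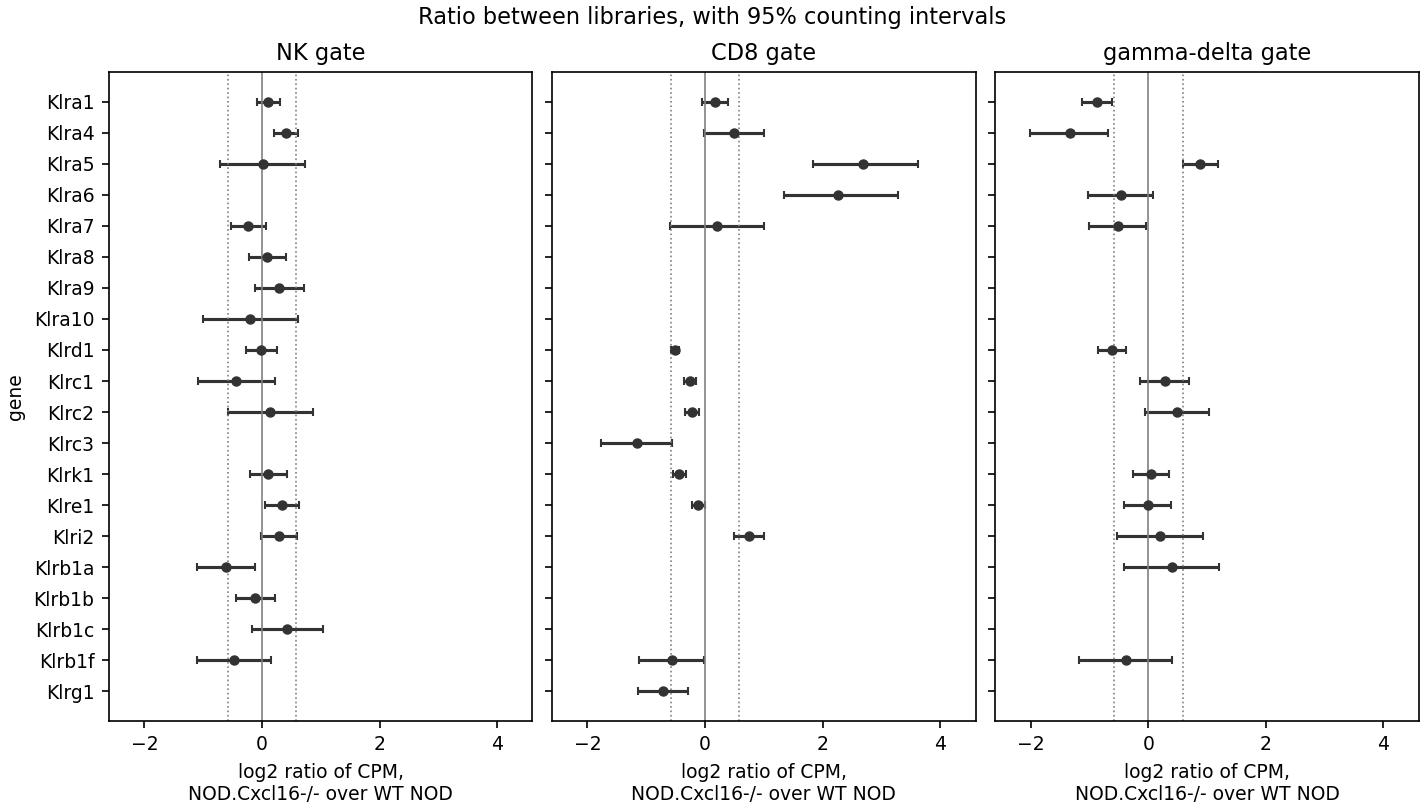
Log2 ratio of each member's CPM, NOD.Cxcl16-/- over WT NOD, with exact 95% counting intervals, for members with at least 50 UMIs in the NK, CD8 or gamma-delta gate, with dotted lines at 1.5-fold. NK-gated points lie on both sides of 0 with Klrb1a alone past a dotted line, Klrd1, Klrk1, Klrc1 and Klrc2 lie left of 0 in the CD8 gate, and Klra1 and Klra4 lie left and Klra5 right of 0 in the gamma-delta gate.

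As a sum, the family differed little between libraries in NK-gated cells, with a log2 ratio of 0.11 (0.03 to 0.19). In the CD8 gate the summed ratio was -0.30 (-0.34 to -0.26), and this sign was kept under each of the 9 other settings tried, at -0.35 to -0.28. The summed ratio of the gamma-delta gate, -0.18 (-0.28 to -0.08), changed sign with gate thresholds raised by 1 UMI (0.022) and with cells assigned by marker score (0.047). In the B gate, the background, the sum was also lower in the library labelled NOD.Cxcl16-/-, and the part of background RNA in the lower T-cell values was not tested.

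The Ly49 genes other than Klra2 and Klra17 made up 51.8% and 53.4% of the Klr UMIs of NK-gated cells. Klra1 (Ly49A), an inhibitory receptor for class I molecules, stood at 1099 CPM in the WT NOD library and 1187 CPM in the other. Klra4 (Ly49D), an activating receptor that signals through DAP12, was at 940.0 and 1252 CPM, a log2 ratio of 0.41 (0.21 to 0.62) that did not reach 1.5-fold. Klra1 was thus the highest member in the first library and Klra4 in the second. Each of these 2 genes had a UMI in most NK-gated cells, at 70.1% and 71.6% of cells thinned to 2000 UMIs for Klra1 and 61.0% and 62.2% for Klra4.

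Thinning left out 24 and 5 shallower NK-gated cells, and the unthinned shares were 66.3% and 79.7% for Klra1 and 55.4% and 65.8% for Klra4, at median depths of 3685 and 4415 UMIs. In B cells the thinned share with a Klra1 UMI was 0.591% and 0.0562%, with median depths of 4388 and 4486 UMIs. Both genes were therefore far above background in the NK gate.

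The other NK Ly49 genes stood in the same order in both libraries. Klra7 (Ly49G), an inhibitory receptor, stood at 574 and 489 CPM, Klra8 (Ly49H), the activating receptor known for a cytomegalovirus ligand, at 444 and 473 CPM, and Klra9 (Ly49I), an inhibitory receptor, at 248 and 304 CPM. Klra5 (Ly49E) was at 94.3 and 95.1 CPM, Klra10 at 80.8 and 70.6 CPM and Klra3 (Ly49C), an inhibitory receptor, at 32.3 and 51.6 CPM. The interval of the log2 ratio between libraries held 0 for each of these 6 genes.

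NK-gated cells differed from each other in the Ly49 genes they held. After thinning, the median cell had UMIs of 3 Ly49 genes in both libraries and the highest had 7, while 19.5% and 14.9% of the cells had none. A share of 70.1% (58.6 to 80.0) and 70.3% (58.5 to 80.3) had 2 or more. In the gamma-delta gate this share was 20.8% and 17.2%, in the CD8 gate 0.880% and 1.31%, and in B cells 0.0657% and 0%, the latter allowing up to 0.207% by its interval. Unthinned, the shares were 62.4% and 75.9% in the NK gate, 32.7% and 28.3% in the gamma-delta gate, and 2.08% and 3.00% in the CD8 gate. All these numbers count reference genes. A NOD gene with reads split over reference copies would raise them, which was not tested.

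UMIs assigned to Klra1 and to Klra4 were met in the same NK cells. Of the cells with a Klra1 UMI 79.6% (66.5 to 89.4) and 75.5% (61.7 to 86.2) also had Klra4, against 17.4% (4.95 to 38.8) and 28.6% (11.3 to 52.2) of those without. For Klra7 beside Klra1 the shares were 50% and 62.3%, against 8.70% and 19.0%. Detection of any gene rises with capture in a cell, and its part in these shares was not tested beyond thinning. Klra1 and Klra4 are each other's closest Klr gene at the 3' end, with 6.96% and 4.66% of their stretches shared. Reads of a NOD gene assigned in part to either reference copy could add to these shares, which was not tested.

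**Figure D4:**
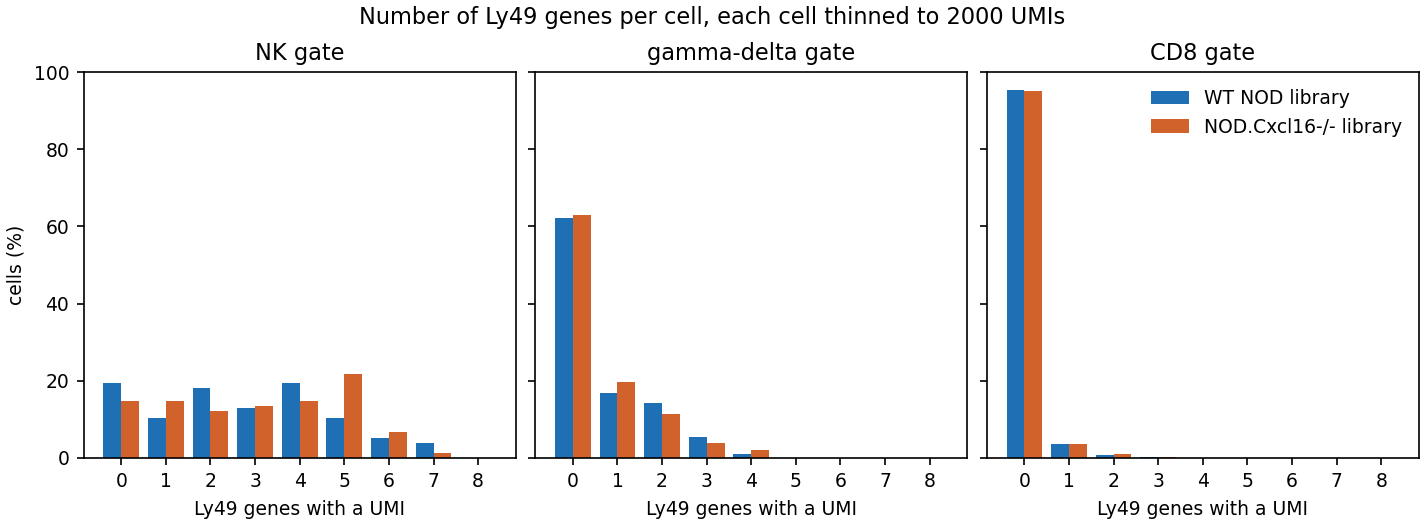
Share of cells by the number of Ly49 genes with a UMI (Klra genes other than Klra2 and Klra17), each cell thinned to 2000 UMIs, in 3 gates and both libraries. NK-gated cells spread from 0 to 7 genes, 62.3% and 63.1% of gamma-delta-gated cells and 95.5% and 95.2% of CD8-gated cells have none.

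The Ly49 genes of gamma-delta T cells differed in part from those of NK cells. Klra5 stood at 147 and 271 CPM there and Klra6 (Ly49F) at 74.4 and 53.8 CPM. In the NK gate Klra6 was at 8.08 and 5.43 CPM, from 3 and 2 UMIs. Genes of the NK set were present too, with Klra1 at 417 and 228 CPM and Klra7 at 97.3 and 67.8 CPM. The summed Klr level was highest in gamma-delta cells with an Ncr1 UMI (57 and 52 cells), at 2639 and 2432 CPM, against 1857 and 1634 CPM over the whole gate. Klra1 was not limited to them, since they held 202 of its 437 and 110 of its 195 UMIs in the gate.

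Between libraries the gamma-delta set did not move as 1. Klra5 was higher in the library labelled NOD.Cxcl16-/-, with a log2 ratio of 0.88 (0.58 to 1.19), and was found in 20 of 196 cells against 32 of 159. Its thinned share of cells was 8.74% (5.08 to 13.8) and 17.8% (12.2 to 24.7), with 13 and 2 cells left out and 10.2% and 20.1% unthinned. Klra1 was lower, at -0.87 (-1.12 to -0.62), and so was Klra4, at 79.2 against 31.6 CPM and a ratio of -1.33 (-2.01 to -0.69). These 3 directions were the same among gamma-delta cells with an Ncr1 UMI, at 0.73, -0.83 and -1.63. Assignment by marker score brought the Klra1 and Klra4 ratios to -0.31 and -0.26.

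Some genes of cell state in the gamma-delta gate were also lower in the library labelled NOD.Cxcl16-/-. Of the 17 with enough UMIs, 6 were called lower (3.22% of 4937 genes were) and none higher (7.47%). They included Top2a, Eomes, Tbx21 and Gzma, with Gzma at 257 and 109 CPM. Among the cells with an Ncr1 UMI, Gzma stood at 126 and 196 CPM, in the other direction. Their part in the Klr differences was not tested.

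In T cells of the other gates Ly49 UMIs came from few cells. Klra1 was found in 148 of 2018 and 100 of 1335 CD8-gated cells, at 24.9 and 27.9 CPM. The higher CD8 levels of Klra5 (0.917 and 5.87 CPM) and Klra6 (0.851 and 4.10 CPM) rested on 63 UMIs in 10 cells and 44 UMIs in 18 cells of the library labelled NOD.Cxcl16-/-, with 12 UMIs in a single cell for either gene. In the CD4 gate Klra7 had 47 UMIs in 12 cells, 19 of them in 1 cell, against 3 UMIs, a log2 ratio of -4.15 (-6.48 to -2.51). Klra1 in the same gate had 86 UMIs in 22 cells against 22 UMIs in 12 cells. These counts describe a handful of cells in each library. NK-cell markers in the CD4 gate moved with these and the other lower members in part. Ncr1 stood at 5.57 and 1.60 CPM, Eomes at 9.69 and 4.28 CPM and Tyrobp at 29.2 and 8.88 CPM. Nkg7 (282 and 298 CPM), Prf1 (6.42 and 6.63 CPM), Txk (107 and 101 CPM) and Gzma (16.2 and 23.8 CPM) were not lower by 1.5-fold. The part of NK cells in the CD4 values was not tested.

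A set of cells lay between the gates. Cells with at least 5 Cd3 UMIs and an Ncr1 UMI that were not gamma-delta-gated numbered 126 and 96 and held a summed Klr level of 3168 and 3431 CPM. Their Ly49 genes included Klra1 at 586 and 593 CPM, Klra7 at 256 and 249.9 CPM and Klra5 at 143 and 174 CPM. Klra6 stood at 63.1 and 48.0 CPM, so Klra5 and Klra6 were not limited to the gamma-delta gate. Their median depths were 5611.5 and 6286 UMIs, against 3685 and 4415 in the NK gate, and whether droplets with 2 cells are among them was not tested.

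CD94 and its partners were the main receptors of CD8 T cells. Klrd1 was at 353 CPM in the WT NOD library and 247 CPM in the other, Klrc1 (NKG2A), the inhibitory partner, at 150.2 and 126 CPM, and Klrc2 (NKG2C), an activating partner, at 97.8 and 83.5 CPM. Klrc3 (NKG2E) was scarce, at 6.61 and 2.98 CPM. Klrd1 made up 38.2% and 32.9% of the Klr UMIs of the gate, and the 3 Klrc genes a further 27.5% and 28.3%. Each was lower in the library labelled NOD.Cxcl16-/-, and only Klrc3 passed 1.5-fold.

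The Klrd1 log2 ratio in the CD8 gate was -0.51 (-0.58 to -0.45), with a range of -0.55 to -0.47 over the other settings. Its thinned share of cells was 42.6% (40.3 to 44.9) against 32.0% (29.5 to 34.7), with 200 and 37 shallower cells left out, and 65.5% and 56.8% unthinned. The background share in B cells was 0.788% and 0.112%. The share of cells with a detected UMI was thus lower too. At this depth a lower level in every cell also lowers that share, so it does not show by itself that fewer cells held the transcript. For Klrc1 the ratio was -0.26 (-0.35 to -0.16), for Klrc2 -0.23 (-0.35 to -0.11) and for Klrc3 -1.15 (-1.77 to -0.56).

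Klrd1 was lower in each of 3 CD8 states set by marker UMIs. In cycling cells (a Mki67 or Top2a UMI) it stood at 324 and 217 CPM, in cells with Entpd1 or Havcr2, markers of exhaustion, at 615 and 479 CPM, and in the remaining cells rich in Ccl5 at 403 and 290.3 CPM. The 3 ratios were -0.58 (-0.68 to -0.47), -0.36 (-0.52 to -0.21) and -0.47 (-0.60 to -0.35) in that order. Klrc1 was likewise highest in the Entpd1 or Havcr2 cells, at 258 and 227 CPM, and at 142 and 111 CPM in cycling cells. Its ratio in cycling cells was -0.36 (-0.51 to -0.21), and that of Klrc2 was -0.29 (-0.46 to -0.11). In the Entpd1 or Havcr2 cells the intervals held 0 for Klrc1 (-0.42 to 0.05) and Klrc2 (-0.46 to 0.14). The same held in the Ccl5-rich cells for Klrc1 (-0.32 to 0.02) and Klrc2 (-0.35 to 0.08). No gene of the 23 measured state genes was called between libraries in the CD8 gate, where 3.07% of 10588 genes were called higher and 2.67% lower. At these shares few calls would be met among 23 genes, so this count does not show that cell states were alike.

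The NKG2 genes were detected together. Among CD8-gated cells with a Klrc2 UMI 48.9% (43.2 to 54.6) and 49.0% (41.8 to 56.2) also had Klrc1, against 17.2% and 14.0% of cells without. Because Klrc1 and Klrc2 share part of their 3' sequence, misassigned reads could add to this share, which was not tested. Klrd1, which shares none, was found in 56.4% and 45.6% of cells with Klrc1 and in 38.5% and 28.8% of those without.

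In the gamma-delta gate Klrd1 was also lower, at 392 and 256 CPM, a log2 ratio of -0.62 (-0.86 to -0.38), while Klrc1 stood at 93.5 and 113 CPM and Klrc2 at 52.5 and 73.6 CPM. In the NK gate the Klrd1 levels of 671 and 665 CPM differed by less than counting error, as did those of Klrc1 (132 and 97.8 CPM), Klrc2 (88.9 and 97.8 CPM) and Klrc3 (32.3 and 35.3 CPM). The CD4 gate held Klrd1 at 18.7 and 23.4 CPM, a ratio of 0.33 (0.02 to 0.64) that turned to -0.35 with cells assigned by marker score. ILC-gated cells had no Klrd1 UMI, with a floor of 3 counts at 20.9 and 9.94 CPM.

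Klrk1 (NKG2D), the activating receptor for stress ligands, was found in lymphocyte and myeloid gates. It stood at 439 and 473 CPM in the NK gate, 182 and 188 CPM in the gamma-delta gate and 132 and 97.0 CPM in the CD8 gate. The myeloid gate held 123 and 114 CPM and the pDC gate 46.0 and 52.4 CPM. In the CD8 gate it was lower in the library labelled NOD.Cxcl16-/-, with a log2 ratio of -0.44 (-0.55 to -0.33) short of 1.5-fold. The thinned shares there were 19.7% (17.9 to 21.6) and 15.3% (13.4 to 17.4), against 35.1% and 27.7% unthinned.

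Across CD8 states Klrk1 was lower in cycling cells, at 125 and 79.5 CPM (-0.65, -0.83 to -0.48), and in Ccl5-rich cells (-0.30, -0.48 to -0.13). In the Entpd1 or Havcr2 cells the interval held 0 (-0.53 to 0.05). The CD4 gate had it at 11.1 and 5.56 CPM, from 49 and 25 cells with a UMI.

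Klre1, whose product pairs with the inhibitory KLRI1 or the activating KLRI2, was at 485 and 611 CPM in the NK gate (log2 ratio 0.33, 0.04 to 0.62), about level with Klri2 at 439 and 535 CPM. Klri1 was far lower there, at 32.3 and 43.5 CPM. CD8-gated cells held Klre1 at 111 and 103 CPM with little of either partner, Klri2 standing at 16.1 and 27.0 CPM and Klri1 at 0.786 and 1.21 CPM.

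The higher Klri2 level in the CD8 gate (ratio 0.75, 0.50 to 1.00) came from 94 of 2018 and 72 of 1335 cells, with 14 and 16 UMIs in the highest cell. Its thinned shares of 2.15% (1.53 to 2.92) and 2.85% (2.01 to 3.91) overlap in their intervals, with 4.66% and 5.39% unthinned, so the number of cells with the transcript was not clearly different at this depth. It was above background, since B cells had Klri2 in 0% and 0.0562% of thinned cells. The mean of each cell's CPM brought the ratio to 0.48, below 1.5-fold. In the myeloid gate the order of the Klri genes was the reverse of that in the NK gate, with Klri1 at 20.2 and 21.1 CPM above Klri2 at 13.2 and 14.4 CPM.

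The NKR-P1 genes other than Klrb1 had their highest level in the NK gate. Klrb1b (NKR-P1B), an inhibitory receptor for Clr-b, led there at 426 and 394 CPM. The larger myeloid gate held it at 54.9 and 58.9 CPM, but with more of its UMIs, 342 and 637 against 158 and 145. Klrb1a stood at 248 and 163 CPM, Klrb1f, an activating receptor for Clr-g, at 143 and 103 CPM, and Klrb1c, the NK1.1 antigen of C57BL/6 mice, at 113 and 152 CPM. Klrb1 itself had 1 and 0 UMIs in the NK gate. CD8-gated cells held Klrb1a, Klrb1b and Klrb1c at 0.279 to 1.86 CPM, where B cells held Klrb1b at 0.973 and 0.316 CPM.

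The lower level of Klrb1a in NK cells of the library labelled NOD.Cxcl16-/- (ratio -0.60, -1.10 to -0.12) rested on 92 UMIs in 48 cells against 60 UMIs in 33 cells. Its thinned shares of 31.2% (21.1 to 42.7) and 20.3% (11.8 to 31.2) overlap, with 47.5% and 41.8% unthinned. With cells assigned by marker score the ratio was 0.15, in the other direction. Klrb1b was the main Klr gene of ILC-gated cells, at 202 and 76.2 CPM, from 29 UMIs in 8 of 34 cells (10 in 1 cell) and 23 UMIs in 5 of 62 cells (12 in 1 cell).

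Klrg1, an inhibitory receptor for cadherins and a marker of mature type 2 ILC and of effector T cells, was highest in ILC-gated cells, at 34.8 and 49.7 CPM from 5 of 34 and 11 of 62 cells. The NK gate followed at 26.9 and 48.9 CPM, within counting error of it. In the CD8 gate it was found in 104 of 2018 and 48 of 1335 cells, at 10.2 and 6.24 CPM, and was lower in the library labelled NOD.Cxcl16-/- (ratio -0.71, -1.15 to -0.29). Its thinned shares were 2.20% (1.58 to 2.98) and 1.46% (0.884 to 2.28), with 5.15% and 3.60% unthinned and no UMI in any B cell. Klrg2 had at most 0.555 CPM in any gate and library.

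Outside the lymphocytes, a separate set of members was found. Klra17 (Ly49Q), known from plasmacytoid dendritic cells, stood at 396 and 367 CPM in the pDC gate and 102 and 99.0 CPM in the myeloid gate, and at 2.72 CPM or less in the NK gate. Of pDC-gated cells 89.7% and 89.8% had its UMI, or 56.4% (42.3 to 69.7) and 54.2% (39.2 to 68.6) after thinning, which left out 3 and 1 cells. Klrd1 accompanied it, at 436 and 313 CPM in the pDC gate, while the NKG2 partner genes had no UMI there (floor of 3 counts at 5.99 and 5.83 CPM). The 2 libraries differed for Klrd1 by a log2 ratio of -0.48 (-0.78 to -0.18), short of 1.5-fold.

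Levels differed between the types of myeloid cell, which covered less than all of the gate: 319 of 561 and 365 of 836 cells met no type's markers and held Klra17 at 146 and 152 CPM and Klrd1 at 156 and 154 CPM. Klra17 was at 163 and 135 CPM in dendritic cells with Cd209a or Clec10a, 72.8 and 72.1 CPM in mature dendritic cells, 56.3 and 58.0 CPM in macrophages and 25.1 and 26.8 CPM in conventional type 1 dendritic cells (cDC1). Klrd1 followed the same order in the dendritic cells, at 150.3, 57.8 and 25.9 CPM in the WT NOD library and 125, 80.0 and 26.8 CPM in the other, and was lower in macrophages at 8.04 and 9.95 CPM. Klrk1 differed from both, with 125 and 142 CPM in cDC1 and 146 and 100.4 CPM in mature dendritic cells. Klrb1b was highest in the Cd209a or Clec10a cells, at 103 and 104 CPM.

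Klra2 (Ly49B), an inhibitory receptor of myeloid cells, was highest in macrophages among the myeloid types with more than 11 cells a library. It stood at 57.9 and 90.7 CPM in macrophages (65 and 144 cells), a log2 ratio of 0.65 (0.12 to 1.21), and at 14.0 and 18.3 CPM over the whole myeloid gate. In cDC1 Klra2 was at 8.36 and 4.12 CPM. The myeloid gate held more macrophages in the library labelled NOD.Cxcl16-/-, and this share and the Klra2 level of the whole gate moved together.

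**Figure D5:**
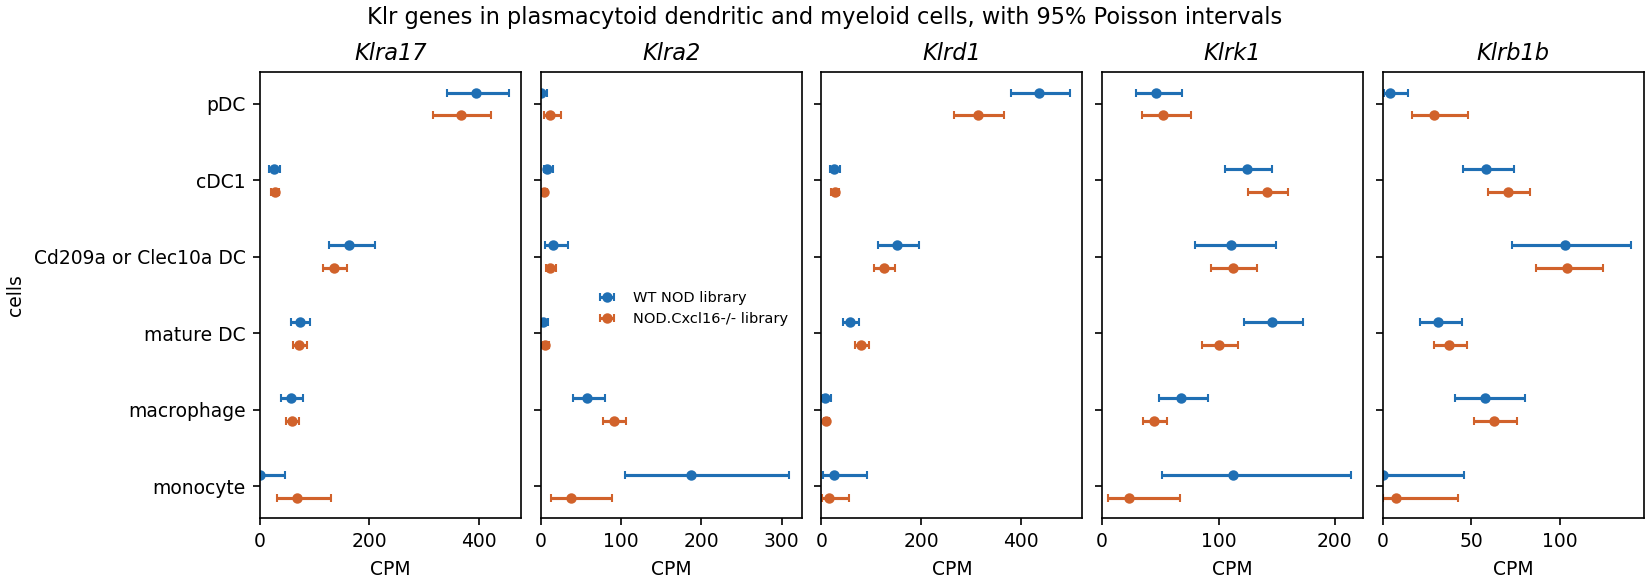
Level in CPM of 5 members in pDC-gated cells and 5 kinds of myeloid cells, with exact 95% Poisson intervals, for both libraries. Klra17 and Klrd1 are highest in pDC, Klra2 in macrophages and the few monocytes (8 and 11 cells), and Klrk1 and Klrb1b are spread over dendritic cells and macrophages.

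The partner genes were read beside the receptors. Of 13 adaptors and proximal signalling genes 7 could be compared in the NK gate and none was called, while Tyrobp and Syk of 11 were called lower in the CD8 gate and Tyrobp, Fcer1g and Syk of 11 in the CD4 gate. Also called lower were Ptpn11 of 10 in the gamma-delta gate, Fcer1g of 3 in the ILC gate, Lck of 10 in the myeloid gate, Ptpn11 of 7 in the pDC gate and Hcst and Sh2d1a of 11 in the B gate. The 1 adaptor called higher in any gate was Sh2d1b1, in the B gate, and the shares of all genes called are those given for each gate above. Tyrobp (DAP12), the adaptor of activating Ly49 receptors, was at 1452 and 1380 CPM in the NK gate, 4070 and 3488 CPM in the pDC gate and only 15.7 and 8.75 CPM in the CD8 gate. Hcst (DAP10), the adaptor of NKG2D, stood at 689.5 and 546 CPM in the NK gate and 351 and 267 CPM in the CD8 gate.

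Of 13 ligand genes none was called in the NK, CD8, CD4, gamma-delta, ILC, myeloid or pDC gate, with 4, 9, 8, 5, 3, 10 and 5 compared, while in the B gate H60b of 9 was called higher, at 18.1 and 29.9 CPM. H2-T23, which encodes Qa-1, was present throughout, at 177 CPM in the NK gate of the library labelled NOD.Cxcl16-/- up to 442 CPM in the pDC gate of the WT NOD library. The NKG2D ligand Raet1e was at 57.7 and 58.5 CPM in the CD8 gate, and H60c had no UMI in 6 of the 8 gates. Clec2d, the Clr-b ligand of Klrb1b, was at 135 and 139 CPM in the CD4 gate. Of 8 other NK receptors none was called in the NK gate (5 compared) or the CD8 gate (7 compared), and none in the gamma-delta gate (6) or the pDC gate (1). Ncr1 of 6 was called lower in the CD4 gate, Cd226 and Fcgr3 of 3 higher in the myeloid gate and Il2rb of 2 higher in the B gate.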

How the data were processed

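Droplet-based 3' single-cell libraries of sorted islet leukocytes were deposited as count matrices. The counts are whole-number UMI counts per gene and barcode as deposited by the authors, made with Cell Ranger 7.0.1 on mm10 per the submitters' processing notes, and whether intronic reads were counted is not given in the sources used here. Barcodes with at least 500 genes and at most 10% mitochondrial UMIs were kept, doublets were not removed except in an alternative, and cells were gated on marker UMIs with thresholds set after the marker content of the gates was seen. UMIs were summed per gate and library and divided by all UMIs of those cells (CPM). Shares of cells used cells thinned to 2000 UMIs. Intervals (exact Poisson, exact conditional binomial for ratios, Clopper-Pearson for shares, 95%) cover counting error only. The code was tested on simulated data. No test was made, since each group holds 1 library. Every Klr gene is named; values are given by gate for those with at least 50 gated UMIs. Members, lists and tests were chosen with earlier results of these data known. Alternatives changed filters, doublets, thresholds, assignment, averaging, depth, scaling (TMM) and the UMI minimum. Leaving out barcodes found in both libraries, and the values for single members and for counts in the CD4, gamma-delta and myeloid gates, were added after seeing the data. Python 3.11.15, numpy 2.4.6, scipy 1.17.1, pandas 2.3.3 and scikit-learn 1.9.0 were used. Some cell subsets and genes are not reported here.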

Additional observations from a re-analysis of the deposited data

Results flagged for a closer look

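Members whose log2 ratio between the libraries (NOD.Cxcl16-/- over WT NOD) had opposite signs in 2 gates, with neither interval holding 0, are given here by their highest and lowest such gate, and the difference between the gates was not tested for any of them. Klre1 stood at 0.33 in the NK gate and -1.01 in the CD4 gate, where it rested on 41 and 23 UMIs and turned positive after thinning. Klrd1 stood at 0.33 in the CD4 gate and -0.62 in the gamma-delta gate, with -0.51 in the CD8 gate and -0.48 in the pDC gate, and its CD4 value turned negative with cells assigned by marker score. Klra4 stood at 0.41 in the NK gate and -1.33 in the gamma-delta gate, the latter -0.26 with cells assigned by marker score.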

How the results depend on the processing

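No paired analysis was possible because each group holds 1 library, and for the same reason no library could be left out. The summed log2 ratio between libraries was 0.23 by marker score and 0.31 by the mean of each cell's CPM in the NK gate (0.11 as reported), -0.35 by marker score and -0.34 with TMM scaling in the CD8 gate (-0.30), and in the gamma-delta gate (-0.18) it turned to 0.022 with thresholds raised by 1 UMI and 0.047 by marker score. The count of members past 1.5-fold in the NK gate (1) was 0 with cells of at least 200 genes, 4 by marker score, 4 by the mean of each cell's CPM and 3 with a minimum of 20 UMIs. In the CD8 gate (5) it was 2 with doublets removed, 0 after thinning and 9 with a minimum of 20 UMIs. In the CD4 gate (5) it was 3, 2, 1 and 12 with doublets removed, raised thresholds, thinning and the 20-UMI minimum, in the gamma-delta gate (4) it was 2 by marker score and 2 after thinning, and in the myeloid gate (1) it was 0 with raised thresholds, 7 by marker score, 0 after thinning and 3 with the 20-UMI minimum. The NK over CD8 log2 ratio (2.88 and 3.29) was 1.33 and 1.91 by marker score, 2.78 and 3.20 after thinning, 2.68 and 3.11 with TMM, and 2.66 by the mean of each cell's CPM in the WT NOD library. Of 576 values of single members in 64 member and gate pairs, 531 moved by less than counting error and 41 by more. The other 4 changed sign in pairs whose interval did not hold 0. A change of sign where the interval held 0 was not counted as such. Klrb1a in the NK gate turned to 0.15 by marker score (-0.60) and Klre1 in the CD4 gate to 0.29 after thinning (-1.01). Klrd1 in the CD4 gate turned to -0.35 by marker score (0.33) and Klra7 in the gamma-delta gate to 0.15 with raised thresholds (-0.52). The causes were not tested. The number of members highest in the NK gate stayed between 15 and 19. Depth limits the NK and ILC gates most, where the 3-count floor is 8.08 and 8.15 CPM and 20.9 and 9.94 CPM.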
